A study of Rattus norvegicus with 13 samples.

Results

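The glutathione S-transferases measured here were 10 rat genes of 6 classes, namely Gsta2, Gsta3 and Gsta4 (alpha), Gstm1 and Gstm2 (mu), Gstp1 (pi), Gstt1 and Gstt2 (theta), Gstk1 (kappa) and Mgst1 (microsomal). They were chosen by gene symbol, and every probe that the array annotation assigned to 1 of these symbols was taken, which gave 12 of the 22523 probes in the table. Gstp1 had 3 probes and each of the other genes had 1. Of the 12 probes, 11 had a median intensity above 300 in at least 1 group and were tested among 6997 probes in all, and the remaining probe, the dimmest of Gstp1, is given by its values alone.

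Gene expression in early liver carcinogenesis was profiled in rats on 13 Illumina arrays. The model was that of the resistant hepatocyte, for which male Fischer rats received diethylnitrosamine, 2-acetylaminofluorene and a partial hepatectomy. The groups were Oval cells (n = 6 arrays) and Preneoplastic foci (n = 5 arrays), both pooled after laser microdissection 1 week after surgery, and Control liver (n = 2 arrays). Oval cells are small, biliary-like progenitor cells that expand after such injury. Preneoplastic foci are the first visible clones of changed hepatocytes. The sources describe the Control tissue both as normal liver and as random areas of treated rats, so treatment and cell type cannot be told apart in comparisons with Control. Slide 1 carried Oval cells and Control and slide 2 carried Preneoplastic foci, which means that in comparisons with foci the slide cannot be told apart from the group. The Oval cells arrays outnumber the animals that gave the material, so p-values over arrays are too small, and foci pools may share animals as well.

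Glutathione S-transferases couple the tripeptide glutathione to reactive, electrophilic compounds, which makes those compounds more water-soluble and less harmful, and several also reduce lipid peroxides. The soluble classes share a fold and differ in the compounds they accept, kappa enzymes sit in mitochondria and peroxisomes, and microsomal enzymes are anchored in membranes. In rat liver the pi enzyme GSTP is the classical marker of preneoplastic hepatocytes, and many genes of the family are induced through Nrf2, a transcription factor that binds antioxidant response elements. The study recognised oval cells in part by staining for GSTP, and GSTP also marks such foci, so the levels of Gstp1 are a description and no finding. Its probes were part of the fit over all probes, and the counts for the family are given without them first.

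The promoters of the family are shown to give the sequence context of the members described afterwards. RefSeq (build GRCr8) gave 9 windows for 8 of the 10 genes, with 2 start sites for Gsta3 and none for Gstt1 and Gstt2, and each window runs from 250 bases before to 50 bases after the start. Both strands were searched for the core of the antioxidant response element, TGACNNNGC, and for TGANTCA. The second is a looser form of the AP-1 site, which has C or G at the open position N. The letters of the core were found in 3 of the 9 windows, those of Gstp1, the first start of Gsta3 and Gsta2, and in 12.1% of the 33469 rat windows searched. The letters TGANTCA were found in 2 of the 9, those of Gstp1 and Mgst1, and in 7.30% of all windows. The 4 windows with a match are printed 5′ to 3′ with the matching letters in capitals.
Gstp1 (chr1:210769656-210769955, minus strand): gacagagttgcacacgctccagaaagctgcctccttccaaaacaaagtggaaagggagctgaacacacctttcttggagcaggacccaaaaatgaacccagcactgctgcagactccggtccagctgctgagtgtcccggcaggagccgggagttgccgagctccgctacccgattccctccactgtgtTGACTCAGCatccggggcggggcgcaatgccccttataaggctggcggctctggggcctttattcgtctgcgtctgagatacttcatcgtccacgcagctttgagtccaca
Gsta3 (chr9:31154739-31155038, plus strand): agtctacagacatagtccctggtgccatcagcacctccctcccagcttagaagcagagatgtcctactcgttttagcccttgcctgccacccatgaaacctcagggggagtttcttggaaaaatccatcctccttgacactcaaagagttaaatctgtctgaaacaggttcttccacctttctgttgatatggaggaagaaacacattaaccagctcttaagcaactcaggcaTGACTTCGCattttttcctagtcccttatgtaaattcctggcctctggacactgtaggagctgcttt
Gsta2 (chr8:88077043-88077342, minus strand): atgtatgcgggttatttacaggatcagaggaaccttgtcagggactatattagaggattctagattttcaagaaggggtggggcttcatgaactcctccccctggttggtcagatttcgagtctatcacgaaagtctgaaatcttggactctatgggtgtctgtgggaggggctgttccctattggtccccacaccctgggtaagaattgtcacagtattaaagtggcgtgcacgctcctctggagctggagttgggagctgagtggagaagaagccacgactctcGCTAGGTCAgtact
Mgst1 (chr4:172760680-172760979, plus strand): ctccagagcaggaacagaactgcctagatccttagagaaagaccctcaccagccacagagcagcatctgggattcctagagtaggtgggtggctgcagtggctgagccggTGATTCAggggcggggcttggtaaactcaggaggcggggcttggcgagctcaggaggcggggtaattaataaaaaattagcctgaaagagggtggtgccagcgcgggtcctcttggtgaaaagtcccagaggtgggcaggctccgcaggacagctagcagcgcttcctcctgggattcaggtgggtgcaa
In Gstp1 the core match TGACTCAGC lay at -61 to -53 from the start and contained the AP-1 match, at -61 to -55. In Gsta3 the core match lay at -17 to -9. In Gsta2 it lay after the start, at 37 to 45, on the opposite strand. In Mgst1 the match TGATTCA lay at -140 to -134, with T at the open position, so it is not the AP-1 site itself. These matches describe letters, and no binding was measured.

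Outside Gstp1, the widest difference among the members in each comparison was that of an alpha probe. In foci against Control the mu probe Gstm1 (1.34) differed more than Gsta2 (1.24, not called) and Gsta4 (1.00). In Oval cells, Gsta2 and Gsta4 were lower and Gsta3 was higher than in Control, and in Preneoplastic foci Gsta3 and Gsta4 were higher than in Control. All 3 alpha probes of the members were lower in Oval cells than in Preneoplastic foci, with no overlap between the arrays of these groups. How many of all tested probes did not overlap was not counted, so this describes the members alone. Of the further alpha genes on the array, Gsta5 overlapped between these groups and Gsta1 did not. Intensities are the deposited, quantile-normalised values on a linear scale. Differences are in log2 units after background correction, with standard errors and Benjamini-Hochberg adjusted p-values from limma, and a probe counts as called where the adjusted p is under 0.05 and the groups differ 2-fold or more.

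**Figure D1:**
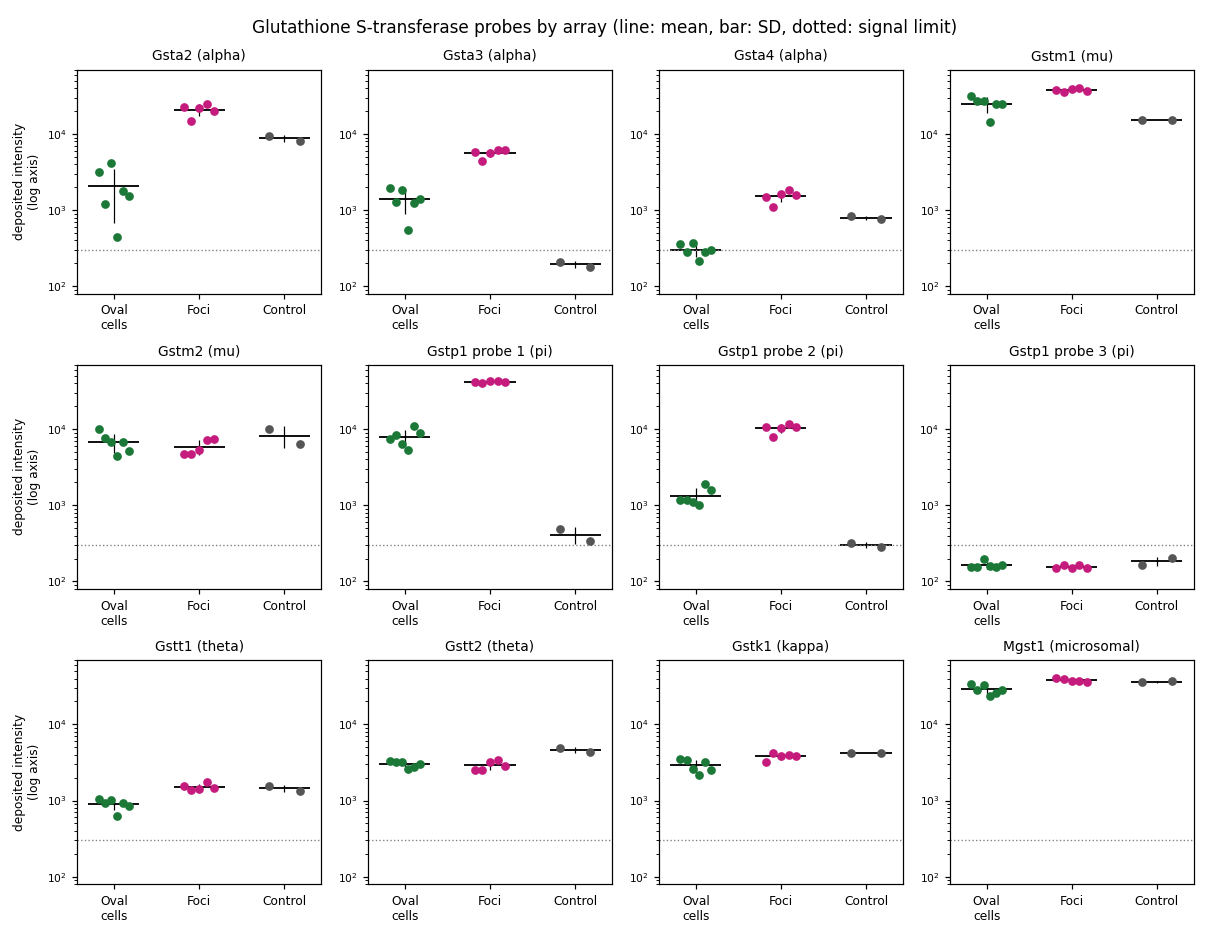
Deposited intensity (log axis) of the 12 glutathione S-transferase probes on each array, with points for arrays, horizontal lines for group means, vertical bars for SD and a dotted line at 300. Gsta2 lay between 446 and 4226 in Oval cells, between 14845 and 24945 in Preneoplastic foci and at 8120 and 9522 in Control, and Gstp1 probe 3 stayed under 300 on every array.

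Gsta2 encodes the alpha subunit long known in rat liver as part of ligandin, which also binds bilirubin and steroids. Its intensity in Oval cells had a lowest value of 446, a median of 1669 and a highest value of 4226, against 9522 and 8120 in Control. Every Oval cells array was below both Control arrays, and the group itself spread over 9.48-fold. Gsta2 fell by 2.49 ± 0.60 on the log2 scale in Oval cells (5.62-fold lower, adjusted p = 0.0018). In Preneoplastic foci it measured 22685, 14845, 22168, 24945 and 20243, against 9522 and 8120 in Control. Every foci array was above both Control arrays, yet the difference of 1.24 ± 0.62 (2.36-fold, 95% interval -0.08 to 2.55) did not pass, with an adjusted p of 0.0903. That test shares its spread with Oval cells, where this probe varied widely. With only foci and Control in the fit the adjusted p was 0.000225, and without Oval cells replicate 4, an array in neither group, it was 0.0097. Between Oval cells and Preneoplastic foci the difference was -3.73 ± 0.45 (13.3-fold lower in Oval cells, adjusted p = 3.07e-06).

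Gsta3 encodes an alpha subunit that RefSeq also lists as Yc2, known in rat for conjugating the epoxide of aflatoxin. Its Oval cells arrays ran from 557 through a median of 1344 to 1935, against 211 and 180 in Control. Both Control arrays were under 300, where a probe is near the floor of the scale, and all Oval cells arrays were above it. Gsta3 was at least 4.29-fold higher in Oval cells (adjusted p = 1.22e-06). In Preneoplastic foci it measured 5870, 4453, 5718, 6126 and 6202, against the same Control values, and was at least 18.8-fold higher (adjusted p = 1.77e-08). The lowest foci array lay above the highest Oval cells array, with a difference of -2.20 ± 0.26 (4.61-fold lower in Oval cells, adjusted p = 3.27e-06).

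Gsta4 encodes the alpha enzyme that prefers 4-hydroxynonenal, an aldehyde released by lipid peroxidation. In Oval cells it ran from 212 through a median of 291 to 374, against 828 and 758 in Control. All 6 Oval cells arrays were below Control and 4 of them were under 300, so the size of the fitted fold is uncertain. Gsta4 fell by 1.69 ± 0.24 in Oval cells (3.23-fold lower, adjusted p = 1.58e-05). In Preneoplastic foci it measured 1506, 1111, 1652, 1853 and 1559, against 828 and 758 in Control. The groups did not overlap and the difference was 1.00 ± 0.24 (2.00-fold higher, adjusted p = 0.00232), which sat at the fold limit. The call was lost at 0.93 without Control replicate 2, at 0.97, 0.92 and 0.99 without foci replicates 3, 4 and 5, at 0.89 without background correction and at 0.16 when arrays were centred on ribosomal protein probes. Between Oval cells and Preneoplastic foci the difference was -2.69 ± 0.18 (6.46-fold lower in Oval cells, adjusted p = 8.05e-09).

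The mu class divided. Gstm1 was higher in Preneoplastic foci than in Control, while Gstm2 was not called in any of the 3 comparisons unless arrays were centred on ribosomal protein probes. Mu enzymes conjugate epoxides and quinones, and Gstm1 and Gstm2 lie beside each other on rat chromosome 2. Gstm1 measured 38363, 36028, 38618, 40082 and 36981 in Preneoplastic foci, against 15085 on both Control arrays. The Control values are identical because quantile normalisation gives probes of the same rank the same value, so their lack of spread is no measure of precision. Gstm1 was higher in foci by 1.34 ± 0.20 (2.53-fold, adjusted p = 5.16e-05), and the call was lost with cyclic loess (0.92) and with ribosomal centring (0.50). On the foci arrays it ranked 5 to 18 among all probes, near the top of the scale that quantile normalisation fixes, so the size is uncertain.

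In Oval cells Gstm1 ran from 14461 through a median of 25751 to 31514, against 15085 on both Control arrays. A single array, Oval cells replicate 4, lay below Control and the other 5 lay above it. The difference of 0.68 ± 0.20 (1.61-fold, adjusted p = 0.00676) passed the p threshold, stayed under the fold limit and turned to -0.32 with ribosomal centring. Against Preneoplastic foci, Oval cells were lower in Gstm1 by a difference of -0.65 ± 0.15 (1.57-fold, adjusted p = 0.00116), again under the fold limit and with no overlap of arrays.

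Gstm2 had a lowest value of 4465, a median of 6837 and a highest value of 10000 in Oval cells, against 10083 and 6374 in Control. In Preneoplastic foci its values were 4677, 4677, 5407, 7120 and 7328. Of the Control arrays, 1 lay within the range of both lesions and 1 just above the highest Oval cells array. The difference was -0.28 in Oval cells (95% interval -0.86 to 0.29, adjusted p = 0.357) and -0.49 in foci (95% interval -1.08 to 0.10, adjusted p = 0.135). The interval in foci reaches past the fold limit, so equal levels were not shown. With ribosomal centring Gstm2 was called lower in Oval cells (-1.29, adjusted p = 0.00105) and in foci (-1.33, adjusted p = 0.00112). The value in Oval cells turned to 0.049 without Control replicate 1.

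Gstp1 encodes the pi enzyme and separated the 3 groups. Its brightest probe ran from 5282 through a median of 7917 to 10856 in Oval cells and measured 41982, 40575, 43186, 43186 and 41138 in Preneoplastic foci, against 487 and 340 in Control. No array of one group reached the range of another, with foci highest and Control lowest. On every foci array it ranked among the 4 brightest probes, and on foci replicates 3 and 4 it held 43186, the highest value that quantile normalisation assigns. The size of its folds against foci is therefore uncertain. The fitted folds were 125-fold higher in foci than in Control and 5.52-fold lower in Oval cells than in foci. They also depend on the background correction, since the geometric means of the deposited intensity were 42000 in foci and 407 in Control. In Oval cells the log2 difference from Control was 4.50 ± 0.21 (22.7-fold).

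The second Gstp1 probe gave the same order from a lower part of the scale. It ran from 1015 through a median of 1175 to 1887 in Oval cells and measured 10734, 7786, 10484, 11875 and 10574 in foci, against 324 and 287 in Control. The differences were 2.39 ± 0.22 in Oval cells against Control (5.23-fold), 5.43 ± 0.22 in foci against Control (43.2-fold) and -3.05 ± 0.16 in Oval cells against foci (8.27-fold lower in Oval cells). The 2 probes did not give the same sizes, and with the first at the top of its scale in foci they cannot be set against each other there. The third probe, annotated through an expressed sequence tag, lay between 153 and 198 in Oval cells, between 149 and 164 in foci and at 165 and 202 in Control, with no group standing apart. Where the probes lie in the transcript is not given in the sources used here.

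The theta enzymes accept small halogenated compounds and peroxides. Gstt1 ran from 625 through a median of 920 to 1038 in Oval cells, against 1555 and 1323 in Control. All Oval cells arrays were below Control, by a difference of -0.75 ± 0.17 (1.69-fold lower, adjusted p = 0.00109), which is under the fold limit. In Preneoplastic foci it measured 1532, 1368, 1430, 1731 and 1461 and overlapped Control, with a difference of 0.07 (95% interval -0.31 to 0.44, adjusted p = 0.75) that turned to -0.77 with ribosomal centring and to -0.055 without Control replicate 2. Against foci, Oval cells were lower by a difference of -0.82 ± 0.13 (1.77-fold, adjusted p = 3.77e-05) with no overlap.

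Gstt2, the other theta gene and a neighbour of Gstt1 on chromosome 20, was lower in both lesions at a similar size. It ran from 2567 through a median of 3129 to 3261 in Oval cells and measured 2493, 2523, 3168, 3437 and 2843 in Preneoplastic foci, against 4890 and 4279 in Control. No array of either lesion reached the lower Control array. The differences were -0.62 ± 0.14 in Oval cells (1.54-fold lower, adjusted p = 0.00088) and -0.69 ± 0.14 in foci (1.61-fold lower, adjusted p = 0.000603), both under the fold limit. Between Oval cells and foci the difference was 0.07 ± 0.10 (adjusted p = 0.569) and turned to -0.10 with ribosomal centring.

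Gstk1, the kappa enzyme, ran from 2154 through a median of 2883 to 3509 in Oval cells and measured 3178, 4267, 3863, 3961 and 3867 in Preneoplastic foci, against 4231 and 4160 in Control. Oval cells lay below Control on all 6 arrays and foci on 4 of 5. The difference was -0.57 ± 0.17 in Oval cells (1.49-fold lower, adjusted p = 0.00749), under the fold limit, and -0.14 in foci (95% interval -0.51 to 0.23, adjusted p = 0.489). Against foci, Oval cells were lower by a difference of -0.43 ± 0.13 (1.35-fold, adjusted p = 0.00696), also under the fold limit, and the arrays overlapped.

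Mgst1, a membrane-bound transferase and peroxidase of the endoplasmic reticulum and mitochondria, ran from 23552 through a median of 28384 to 33559 in Oval cells, against 35675 and 37263 in Control. In Preneoplastic foci it measured 41138, 39700, 36981, 37472 and 36028. Oval cells lay below Control on every array, and foci overlapped Control. The difference was -0.35 ± 0.12 in Oval cells (1.28-fold lower, adjusted p = 0.0165) and 0.07 in foci (95% interval -0.20 to 0.33, adjusted p = 0.645), and the value in foci turned to -0.37 with cyclic loess and to -0.77 with ribosomal centring. Against foci, Oval cells were lower by a difference of -0.42 ± 0.09 (adjusted p = 0.000667), which is also under the fold limit. Mgst1 ranked 3 to 18 on foci arrays and 14 to 19 on Control arrays, near the top of the scale, so these sizes are uncertain.

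Over the family without Gstp1, 1 of 9 tested probes was called higher in Oval cells than in Control (Gsta3) and 2 lower (Gsta2 and Gsta4), beside 13.5% of all tested probes called higher and 12.0% called lower. In Preneoplastic foci 3 of 9 were called higher than in Control (Gsta3, Gsta4 and Gstm1) and 0 lower, beside 10.3% and 7.80% of all probes. With ribosomal centring the calls for Gsta4 and Gstm1 were lost, and Gstm2 and Gstt2 (-1.53) were called lower in foci. That centring assumes that ribosomal protein RNA did not change, which was not tested. Between Oval cells and foci, 3 of 9 were called lower in Oval cells (the alpha probes) and 0 higher, beside 6.73% and 7.96% of all probes. Both bright Gstp1 probes passed the same limits in each comparison. With them, the calls among 11 probes were 3 higher and 2 lower in Oval cells against Control, 5 higher and 0 lower in foci against Control, and 0 higher and 5 lower in Oval cells against foci. At an unadjusted p under 0.05, 4 of the 11 were higher and 6 lower in Oval cells against Control by limma, and 3 and 5 by the methods' t-test. In foci against Control 5 were higher and 1 lower by limma, and 6 and 1 by the methods' t-test. In Oval cells against foci 0 were higher and 9 lower by each of these tests. The counts at an unadjusted p have no share of all probes beside them and describe the members alone. The median difference of the 11 probes, Gstp1 included, was -0.35 in Oval cells and 1.00 in foci, each against Control. It was -0.82 in Oval cells against foci, and the medians over all probes were 0.01, 0.01 and -0.03. Gstp1 raises the median in foci against Control, where Gstt1, Gstt2, Gstk1, Mgst1 and Gstm2 differed by 0.07, -0.69, -0.14, 0.07 and -0.49. These medians are therefore a description. The comparisons share arrays and are not independent of each other. In bulk material, fewer cells of a type and less RNA per cell cannot be told apart.

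**Figure D2:**
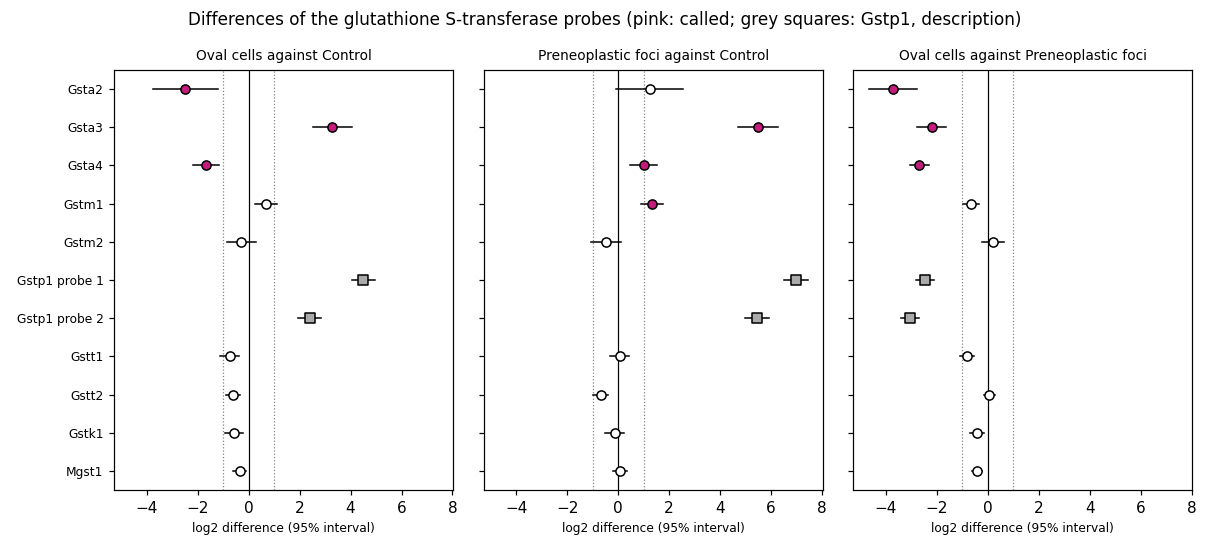
Log2 differences of the 11 tested probes in the 3 comparisons, with bars for 95% intervals, pink points for called probes, white for others, grey squares for Gstp1, which is a description, and dotted lines at a 2-fold difference. Gsta2 and Gsta4 lie left of 0 in Oval cells against Control (-2.49 and -1.69) and right of it in Preneoplastic foci against Control (1.24, not called, and 1.00), and the Gstm1 point of 0.68 in Oval cells turns to -0.32 with ribosomal centring.

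Quantile normalisation holds the distribution of each array fixed. When arrays were instead centred on 55 ribosomal protein probes, the median of all probes fell by 1.00 in Oval cells against Control, fell by 0.84 in foci against Control and fell by 0.16 in Oval cells against foci. Under quantile normalisation these 55 probes were thus themselves higher in both lesions than in Control. Centring removes that rise and so assumes that ribosomal protein RNA did not change, which was not tested. With this centring, 7 of the 11 member probes were called lower and 3 higher in Oval cells against Control, where 3724 of all 6997 tested probes were called. Called members were 2 lower and 3 higher in foci against Control, and 5 lower and 0 higher in Oval cells against foci. The share of all probes called in these 2 comparisons is not given, and the 11 include Gstp1. These counts therefore describe the members alone. Of all calls, 7.33% were then higher in Oval cells against Control and 5.46% in foci against Control, where 52.9% and 56.9% were higher without that centring, and 36.6% were higher in Oval cells against foci, where 54.2% were without it.

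The family also varied within the Oval cells. Replicate 4 was the lowest of the 6 Oval cells arrays for all 11 tested probes, while it was the lowest for 20.6% of all tested probes and the highest for 24.9%. This was seen in the values and not looked for beforehand. That array also had the lowest summed intensity of the other transferases (16147, with 27096 to 40373 on the other 5). Most of that gap was Gsta5 alone, at 5078 there and 14160 to 25654 on the others. Mgst2 and Gsto1 were lowest on that array too, while Gstm4 and Gstm5 were not. The sum was also lowest there for the genes of glutathione supply and use (30163, with 34223 to 36316) and for the Nrf2 pathway (20458, with 27919 to 34848). Gsta2 was at 446 on that array and between 1221 and 4226 on the other 5, and Gsta3 was at 557 there and between 1255 and 1935 on the others. The SD of log2 values over Oval cells arrays was 1.22 for Gsta2, and 0.1% of tested probes had a larger one. It was 0.70 for Gsta3, with 0.786% of probes above it, and 0.15 for Gstt2, with 47.1% above it, beside a median of 0.14 over all tested probes. Gsta2 therefore varied far more between the Oval cells arrays than most genes did, and Gstt2 about as much as the median gene.

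**Figure D3:**
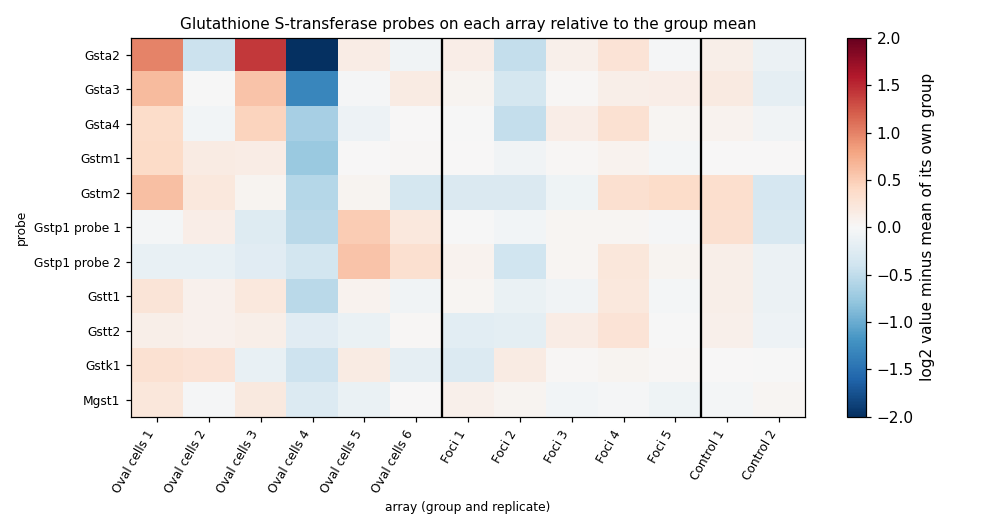
Log2 value of the 11 tested probes on each array minus the mean of its own group, with red above and blue below the group mean and colours limited at 2 log2 units. The column of Oval cells replicate 4 is blue for all 11 probes, and Preneoplastic foci replicate 2 is the lowest of its group for 7.

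Levels of cell type markers stood beside this. Summed intensity of 9 hepatocyte markers was 188264 on Oval cells replicate 4 and 174958 to 203917 over the group, so that array was not the lowest. Much of this sum is Alb and Serpina1, near the top of the scale, so small changes of it are uncertain. On replicate 4 the sum of 7 biliary markers was 27843 in a range of 19857 to 29666. The sum of 8 stellate and matrix markers there was 38324, the highest of a range that began at 28398. In Preneoplastic foci, replicate 2 was the lowest array for 7 of the 11 member probes, where it was the lowest for 25.1% of all tested probes. It also had the highest biliary sum of its group (6337, with 3137 to 4467 on the other 4) and the highest stellate and matrix sum (9647, with 4912 to 7285 on the others). The part of these cells in the member levels was not tested. Without Oval cells replicate 4 the counts of called members in Oval cells stayed at 5 against Control and 5 against foci, and Gsta2 fell by 2.08 against Control (adjusted p = 0.000186).

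The markers also differed between the groups. The biliary sum was 19857 to 29666 in Oval cells and 3137 to 6337 in Preneoplastic foci, against 1810 and 1939 in Control. Of 7 tested biliary genes, 7 were called higher in Oval cells than in Control and 4 in foci. Of all tested probes, 13.5% and 10.3% were called higher there. The stellate and matrix sum was 28398 to 38324 in Oval cells and 4912 to 9647 in foci, against 5357 and 6030 in Control. The hepatocyte sum was 174958 to 203917 in Oval cells and 182411 to 196305 in foci, against 226273 and 205274 in Control. Much of this sum is Alb and Serpina1 (means of 39885 and 37263 in Oval cells), near the top of the scale. Its size is therefore uncertain. Of 8 tested hepatocyte genes 0 were called by limma in any of the 3 comparisons. Of all tested probes, 12.0% and 7.80% were called lower than Control in Oval cells and foci. Between Oval cells and foci 7.96% were called higher and 6.73% lower. At an unadjusted p under 0.05, 3 of the 8 were lower in Oval cells than in Control, 3 were lower in foci than in Control, and 1 was higher and 2 lower in Oval cells than in foci. These counts have no share of all probes beside them. The 3 lower in Oval cells were Tdo2 (1.92-fold), Ttr (1.69-fold) and Ass1 (1.24-fold), all under the fold limit. Hnf4a, a regulator that defines hepatocytes, was under 300 on every array. Of 3 tested erythroid genes, 3 were called lower than Control in each lesion, beside 12.0% and 7.80% of all tested probes. Erythroid sums were 3154 to 7238 in Oval cells and 6249 to 7647 in foci, against 26237 and 29730 in Control. Summed macrophage markers were 5074 to 8479 in Oval cells and 3024 to 4017 in foci, against 5946 and 4303 in Control, but members moved apart in Oval cells, with Cd74 called higher (3.77-fold) and Cd14 called lower (2.44-fold). Endothelial markers were 2986 to 4145 in Oval cells and 2082 to 2556 in foci, against 2273 and 1923 in Control. Lymphocyte markers were 1227 to 1555 in Oval cells and 1196 to 1349 in foci, against 1227 and 1196 in Control. The part of these cells in the differences between groups was not tested. Within a group array correlations ranged over 0.981 to 0.993, and between groups over 0.903 to 0.965.

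Other transferases on the array did not all follow the members. Of 23 further transferase genes looked for, 16 were on the array and 9 were tested. In Oval cells 1 was called higher and 2 lower than in Control, beside 13.5% and 12.0% of all tested probes. In foci 2 were called higher and 2 lower, beside 10.3% and 7.80%. Gsta5, a further alpha gene, was not called in any comparison. It ran from 5078 on replicate 4 to 25654 in Oval cells and from 21827 to 32377 in foci, against 24694 and 25311 in Control, and the groups overlapped. Its differences were -0.62 in Oval cells (adjusted p = 0.226) and 0.19 in foci (adjusted p = 0.734), each against Control, and -0.80 in Oval cells against foci (adjusted p = 0.0411). Gstm5, a mu gene, was called higher in Oval cells alone. It ran from 633 to 733 in Oval cells, against 279 and 308 in Control (2.75-fold higher, adjusted p = 5.57e-08), and measured 359 to 440 in foci (1.44-fold, under the fold limit). Against foci, Oval cells had 1.90 times the Gstm5 level, with a log2 difference of 0.93 ± 0.09 (adjusted p = 2.61e-07) that did not reach the fold limit either.

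Gstm7, another mu gene, moved the other way and in both lesions. It ran from 236 to 374 in Oval cells and from 280 to 420 in foci, against 2146 and 1809 in Control. The log2 difference was -3.02 ± 0.21 in Oval cells (8.12-fold lower, adjusted p = 1.75e-08) and -2.66 ± 0.22 in foci (6.30-fold lower, adjusted p = 1.57e-07). Ltc4s, a membrane transferase that makes leukotriene C4, was at least 1.32-fold lower in Oval cells (adjusted p = 3.06e-08) and in foci (adjusted p = 1.24e-07). Gstm4 was 2.29-fold higher in foci (adjusted p = 1.4e-05), with a difference of 0.14 in Oval cells (adjusted p = 0.426). Gstm3 was called higher in foci at a level near the floor (at least 1.05-fold, adjusted p = 8.8e-06). Mgst2, a relative of Mgst1, was 2.88-fold lower in Oval cells than in foci (adjusted p = 1.13e-07), and Gsta1 and Gstm4 were called lower there as well. The mu class thus held genes that were higher and genes that were lower in each lesion. Alpha and mu genes include near-identical copies, so a probe may read more than the gene it is named for.

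Glutathione itself is made, recycled and used by a further set of enzymes, of which 10 were tested. In foci 6 were called higher and 1 lower than in Control, beside 10.3% and 7.80% of all tested probes. In Oval cells 2 were called higher and 0 lower, beside 13.5% and 12.0%. There 3 were lower at an unadjusted p under 0.05 by limma. The 2 higher in Oval cells were the peroxidases Gpx2 and Gpx3, which are also among the 6 in foci. Gclc, the catalytic subunit of the rate-limiting enzyme of glutathione synthesis, measured 16529, 7596, 13057, 14374 and 17342 in foci, against 3463 and 3392 in Control (3.93-fold higher, adjusted p = 5.1e-05). Foci replicate 2 was the lowest of the 5 and still above Control. In Oval cells Gclc ran from 2315 to 5316 and overlapped Control, with a difference of 0.21 ± 0.29 (adjusted p = 0.528). Gclm, the modifier subunit, was 2.98-fold higher in foci (adjusted p = 2.61e-05) and had a difference of -0.71 in Oval cells (adjusted p = 0.00903), under the fold limit. Both were called lower in Oval cells than in foci, by 3.39-fold for Gclc and 4.90-fold for Gclm. Glutathione synthetase (Gss) was 2.49-fold and glutathione reductase (Gsr) 2.35-fold higher in foci, and neither was called in Oval cells.

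The peroxidases that use glutathione were called in both lesions for Gpx2 and Gpx3. Gpx2 was at least 8.90-fold higher in Oval cells (adjusted p = 1.67e-10) and at least 11.4-fold higher in foci (adjusted p = 1.18e-10). Gpx3 was 6.40-fold higher in Oval cells (adjusted p = 5.79e-07) and 4.69-fold higher in foci (adjusted p = 7.31e-06). Gpx1 had differences of -0.74 in Oval cells and -0.67 in foci, both under the fold limit, and Gpx4 had differences of 0.11 and 0.14 that did not pass. Oplah, which recycles oxoproline towards glutathione, was 2.49-fold lower in foci. Abcc3, an exporter of conjugates, ran from 847 to 1119 in Oval cells and from 1966 to 3305 in foci, against 222 and 269 in Control. It was at least 3.35-fold higher in Oval cells (adjusted p = 1.84e-08) and at least 8.72-fold higher in foci (adjusted p = 4.08e-10), with a difference of -1.44 ± 0.13 between Oval cells and foci (adjusted p = 1.55e-07).

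Of 10 tested genes of the Nrf2 pathway, 3 were called higher in Oval cells than in Control, beside 13.5% of all tested probes. In Preneoplastic foci 5 were called higher, beside 10.3%. In either lesion 0 were called lower (1 in each at an unadjusted p under 0.05 by limma), beside 12.0% and 7.80%. Between the lesions 4 were called lower in Oval cells than in foci, beside 6.73%. Hmox1 was not called, with differences from Control of -0.21 in Oval cells (adjusted p = 0.179) and 0.31 in foci (adjusted p = 0.0629). Keap1, the inhibitor of Nrf2, ran from 494 to 578 in Oval cells, against 959 and 993 in Control (1.91-fold lower, adjusted p = 2.59e-05), with no overlap and just under the fold limit, and its difference in foci was -0.33 (adjusted p = 0.054). Nfe2l2, which encodes Nrf2, was 1.33-fold higher in Oval cells (adjusted p = 0.00419), also under the limit, and its difference in foci was 0.0041 (adjusted p = 0.978). Nqo1, a quinone reductase, measured 7399, 4435, 7346, 9153 and 7077 in foci, against 1125 and 666 in Control (8.61-fold higher, adjusted p = 1.94e-05). In Oval cells it ran from 546 to 1964 and overlapped Control (difference 0.74 ± 0.42, adjusted p = 0.126). Akr7a3, an aflatoxin aldehyde reductase, was 35.1-fold higher in foci (adjusted p = 4.05e-08) and 2.56-fold higher in Oval cells (adjusted p = 0.0038), where replicate 4, at 536, lay below both Control arrays, at 587 and 560. Txnrd1, thioredoxin reductase, was 7.86-fold higher in foci and had a difference of 0.43 in Oval cells, under the fold limit. Ephx1, microsomal epoxide hydrolase, was 3.60-fold higher in Oval cells and 5.33-fold higher in foci. These lists were made with earlier results of the arrays known.

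**Figure D4:**
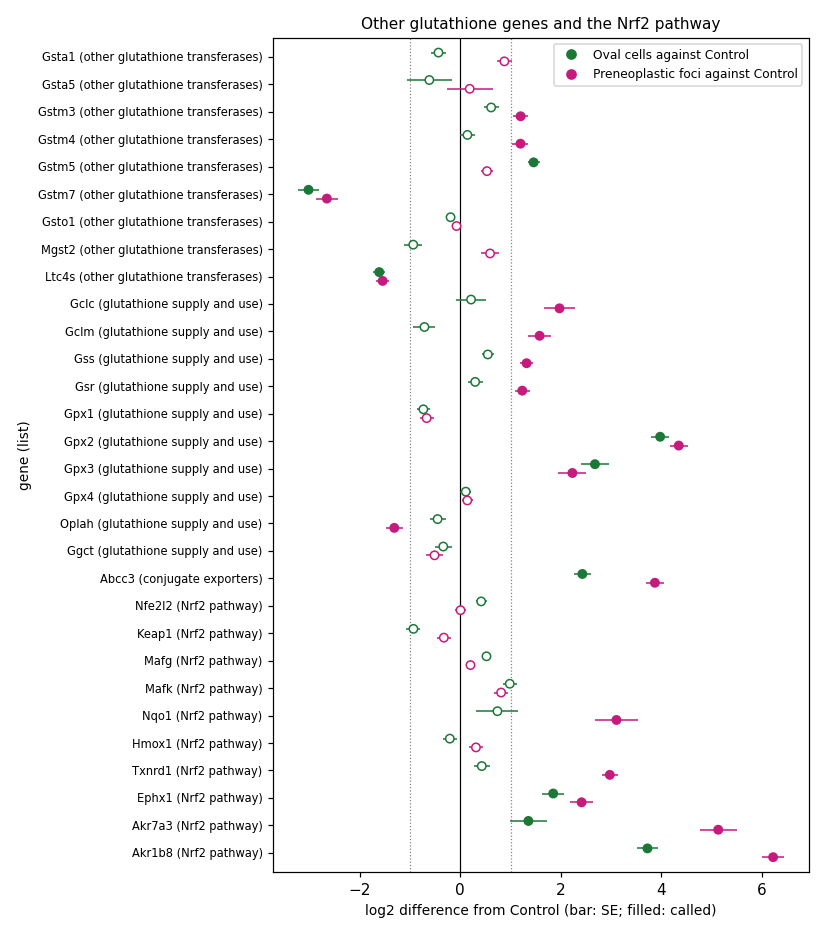
Log2 differences from Control of the other tested transferases, the glutathione genes, an exporter and the Nrf2 pathway, for Oval cells (green) and Preneoplastic foci (pink), with bars for SE, filled points for called genes and dotted lines at a 2-fold difference. Gclc, Gclm, Nqo1 and Txnrd1 are filled for foci alone (1.97, 1.58, 3.11 and 2.97), and Gstm7 is low in both lesions (-3.02 and -2.66).

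The 6 tested probes whose log2 values were most like those of the brightest Gstp1 probe over the 13 arrays were Akr1b8 (Pearson's r = 0.993), Rps23 (0.990), a probe with no gene name here (0.984), Eif5a (0.984), Abcc3 (0.982) and Xpnpep1 (0.981). The arrays fall into 3 groups, and these correlations describe mainly the differences between groups. Akr1b8, an aldo-keto reductase, ran from 944 to 1897 in Oval cells and from 6374 to 9598 in foci, against 165 and 176 in Control. It was at least 4.63-fold higher in Oval cells (adjusted p = 2.53e-09) and at least 25.1-fold higher in foci (adjusted p = 2.26e-11).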

How the data were processed

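Expression was measured on Illumina RatRef arrays of Oval cells, Preneoplastic foci and Control liver. The deposited values are linear probe intensities. According to the submitters' processing notes the authors used BeadStudio (3.0.19.0), and their methods name quantile normalization. This fixes the distribution of every array, so 26.8% of probes exceeded 300 on each, and a shift of total RNA cannot be seen. Another table holds 26 columns of signals and detection p-values under sample names found in no label, and was left out. Groups came from the labels. Replicate numbers follow the order of deposition and pair no arrays.

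Intensities were corrected with normexp (offset 50), quantile-normalized again and log2-transformed with limma 3.58.1 under R 4.3.3, and the offset shrinks folds of dim probes. Probes with a group median over 300 were tested with 1 fit over all 13 arrays, 3 comparisons and Benjamini-Hochberg adjustment over 6997 probes. A fold written as at least N divides the brighter group's geometric mean by 300, and is used where no array of the other group reached 300. The annotation gave 13793 probes 1 symbol and left 8730 unnamed, and 13752 of the named ones had a GRCr8 entry in RefSeq. Every probe of a member is named, and other genes come from the lists and from the 6 probes most like Gstp1. The members and lists were chosen with earlier results of these data known. The scripts were tested on simulated data. Alternatives changed the background step, filter, normalization, fold limit, groups fitted, array weights and test, or left out each array.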

Additional observations from a re-analysis of the deposited data

Results flagged for a closer look

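Within groups, 24 sets of values (12 probes in the groups of 5 and 6 arrays) were examined for an array far from the others, and 4 stood out. In these, on the log2 scale, the gap between the outermost array and its neighbour took up a large share of the group's range. That share passed Dixon's 95% critical value, which chance alone passes in about 1 in 20 sets. Values in brackets are deposited intensities. Gsta3 stood low on Oval cells replicate 4 (557) and on Preneoplastic foci replicate 2 (4453). Gstm1 stood low on Oval cells replicate 4 (14461). Gstp1 probe 3 stood high on Oval cells replicate 3 (198), at a level under 300.

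Gsta2 and Gsta4 lay below Control on every Oval cells array and above Control on every Preneoplastic foci array. The difference between Oval cells and foci was -3.73 for Gsta2 and -2.69 for Gsta4 on the log2 scale, both called in the limma test of that comparison. Gsta2 in foci did not pass against Control with all arrays in the fit (adjusted p = 0.0903).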

How the results depend on the processing

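Over 645 recomputed values of single member probes, 610 kept their direction and call, 8 lost the call, 20 gained it and 7 changed sign. Called members in Oval cells against Control numbered 5 of 11, where 1781 of all 6997 tested probes were called. They numbered 10 with ribosomal centring, where 3724 of all probes were called, and 10 with the adjusted p alone, where 4958 were. In Oval cells against foci they numbered 5, against 9 with the adjusted p alone, since small differences then count. The share of all probes with the adjusted p alone is not given for that comparison. With ribosomal centring the value became -0.32 for Gstm1 in Oval cells against Control, -0.77 for Gstt1 and -0.77 for Mgst1 in foci against Control, and -0.10 for Gstt2 in Oval cells against foci. Cyclic loess gave -0.37 for Mgst1 in foci against Control. With each array left out in turn, Gstm2 in Oval cells against Control ranged from -0.62 to 0.049 and Gstt1 in foci against Control from -0.055 to 0.19. None of these values of changed sign had been called. By the methods' t-test, 7 of 11 members had an adjusted p under 0.05 in Oval cells and 7 in foci, each against Control, and 9 when Oval cells were set against foci. The share of all probes at this limit is not given, so these counts describe the members alone. The methods' filter kept 6 of the 11 probes. The fit without Oval cells replicate 4 for foci against Control was chosen after seeing the data and called 6 members. No paired analysis was possible because the replicate numbers follow the order of deposition. With 2 Control arrays, every comparison with Control rests on few values, and values under 300 bound a fold only from below.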
